A study of Homo sapiens with 3 samples.

Results

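The Notch pathway genes examined here are 10 genes chosen by symbol from the 17448 genes of the expression table. They comprise the receptors NOTCH1, NOTCH2 and NOTCH3, the ligands DLL1, DLL3, JAG1 and JAG2, and the transcription factors HES1, HES6 and HEY1. RNA was sequenced from H128 cells, an established human small cell lung cancer (SCLC) line. The cells had been transfected 48 h earlier with a control siRNA (siCont) or with 1 of 2 siRNAs against ESRRG, the gene encoding the nuclear receptor ERRγ, in libraries labelled siERRG2 and siERRG3. There was 1 library per condition, so no difference could be checked against replicates and no p-value was computed. The labels and methods do not settle which of the study's siRNA sequences the numbers 2 and 3 refer to.

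Notch receptors are membrane proteins that are cut when a ligand on a neighbouring cell binds them. The freed intracellular part enters the nucleus, joins the DNA-binding protein RBPJ and a Mastermind co-activator, and switches on targets such as HES1 and HEY1, which are repressors of lineage genes. In SCLC, most tumours are neuroendocrine, Notch signalling is described as tumour-suppressive there, and DLL3, an inhibitory ligand, is a recognised surface target of therapy.

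ESRRG itself had 806 counts with siCont, 211 with siERRG2 and 230 with siERRG3. Its scaled count ratio to siCont was 0.259 in siERRG2, with a 95% exact binomial (Clopper-Pearson) interval of 0.221 to 0.302, and 0.281 in siERRG3, with an interval of 0.241 to 0.325. These intervals and all others below cover counting error only, and compare libraries, not conditions. The libraries held between 19861937 and 20016780 counts. The neuroendocrine identity of the line was visible in the data. Of 10 neuroendocrine markers, 9 were found in the table and all 9 had a mean of at least 50 counts, and their summed level was 2848 CPM (counts scaled to library size) with siCont, 2472 with siERRG2 and 2804 with siERRG3. Single markers differed in both directions within that sum. At the 1.2-fold threshold used below, 2 of the 9 were lower and 1 higher in siERRG2, beside 19.2% and 16.4% of all genes. The counts in siERRG3 were 3 lower and 1 higher, beside 25.1% and 23.2%. In siERRG2, CHGB and INSM1 were called lower (ratios to siCont of 0.747 and 0.504) and SCG2 higher (2.36). In siERRG3, CHGA, SYP and NEUROD1 were called lower (0.824, 0.704 and 0.542) and UCHL1, the largest term of the sum, higher (1.37). By contrast YAP1, a marker of non-neuroendocrine SCLC, had 2, 3 and 1 counts (here and below in the order siCont, siERRG2, siERRG3). The 6 non-neuroendocrine markers found summed to 56.9, 77.4 and 75.9 CPM, nearly all from VIM (vimentin), with 1091, 1506 and 1488 counts. The 8 immune and stromal markers found summed to 121, 159 and 140 CPM, mostly from COL1A2 with 2043, 2896 and 2505 counts, while VWF had 0, 1 and 0. The part of these marker levels in the values below was not tested.

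The promoters of HES1 and HES6 are shown first, because these related factors had very different levels and HES1 is the classical Notch target. RefSeq promoters (GRCh38.p14, 250 bases before to 50 after the start site) were matched for 7 of the 10 genes. HES1 lies on the plus strand, at chr3:194135898-194136197, and HES6 on the minus strand, at chr2:238239989-238240288. Both are printed 5′ to 3′ in the direction of transcription, and capitals mark each TGGGAA, the core bound by RBPJ.

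HES1: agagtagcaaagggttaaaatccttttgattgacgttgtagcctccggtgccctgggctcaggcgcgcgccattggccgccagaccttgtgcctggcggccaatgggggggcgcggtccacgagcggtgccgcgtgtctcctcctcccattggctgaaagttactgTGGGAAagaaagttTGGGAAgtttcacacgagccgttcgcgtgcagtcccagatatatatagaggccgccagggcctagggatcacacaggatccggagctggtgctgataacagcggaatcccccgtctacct

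HES6: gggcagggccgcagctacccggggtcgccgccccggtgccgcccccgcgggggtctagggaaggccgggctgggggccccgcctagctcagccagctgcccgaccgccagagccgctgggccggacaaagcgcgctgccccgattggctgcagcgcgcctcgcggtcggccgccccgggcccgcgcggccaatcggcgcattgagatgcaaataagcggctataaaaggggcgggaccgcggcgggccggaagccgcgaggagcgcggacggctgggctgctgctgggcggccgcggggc

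TGGGAA was searched on both strands. The HES1 promoter held 2 copies in the same orientation, with first bases at -84 and -70 from the start site, and the first of them was part of the longer RBPJ motif GTGGGAA. The other 6 promoters matched, HES6 included, held no copy of TGGGAA. Among the 35116 promoters of the RefSeq set, 24.0% held TGGGAA and 6.25% held GTGGGAA. The HES1 promoter also held 4 copies of CACNAG, the N-box at which HES1 represses its own gene, a motif found in 38.0% of promoters. The HES6 promoter held none of these, and 1 copy of CAGCTG, an E-box of proneural bHLH factors, which 17.9% of promoters held and which the other 6 matched promoters lacked. AAGGTCA, the core motif of ERR receptors, was in none of the 7 promoters and in 3.92% of all promoters. These are matches of letters within a short window and not measured binding sites.

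The receptors were scarcely expressed. Levels between genes were compared by the authors' expression value. Its unit is not named, and it is treated here as FPKM (per transcript length and library size). NOTCH1 had 0.16 FPKM with siCont, 0.12 with siERRG2 and 0.08 with siERRG3, NOTCH3 had 0.11, 0.10 and 0.17, and NOTCH2 had 0.04, 0.07 and 0.05. The ligands and nuclear factors were far apart from each other. HES6, which antagonises HES1 and promotes neuronal differentiation, was the highest member in siCont at 32.2 FPKM. JAG2, a ligand that activates the receptors, followed at 24.5, DLL3 at 8.42 and HEY1 at 4.34. Next were JAG1, a ligand, at 0.71 and HES1 at 0.66. DLL1, an activating ligand, was listed at 0 in siCont and siERRG3 and had 1 count in siERRG2, so that it did not pass the filter of 10 counts in at least 1 library.

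In the order of levels in siCont, the exact Poisson intervals of neighbours were separate from HES6 down to JAG1. HES6 was at 30.2 to 34.4 FPKM, JAG2 at 23.6 to 25.5, DLL3 at 7.60 to 9.30 and HEY1 at 3.76 to 4.99. JAG1 (0.568 to 0.877) and HES1 (0.397 to 1.03) could not be placed relative to each other. HES1 was above NOTCH1 (0.105 to 0.233), while the interval of NOTCH1 overlapped that of NOTCH3 and the interval of NOTCH3 overlapped that of NOTCH2. HES6 and JAG2 together held 79.7% of the summed FPKM of the members with siCont, 77.7% with siERRG2 and 82.6% with siERRG3. Within families, HES6 was 48.8-fold above HES1 and JAG2 34.5-fold above JAG1 in siCont.

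**Figure D1:**
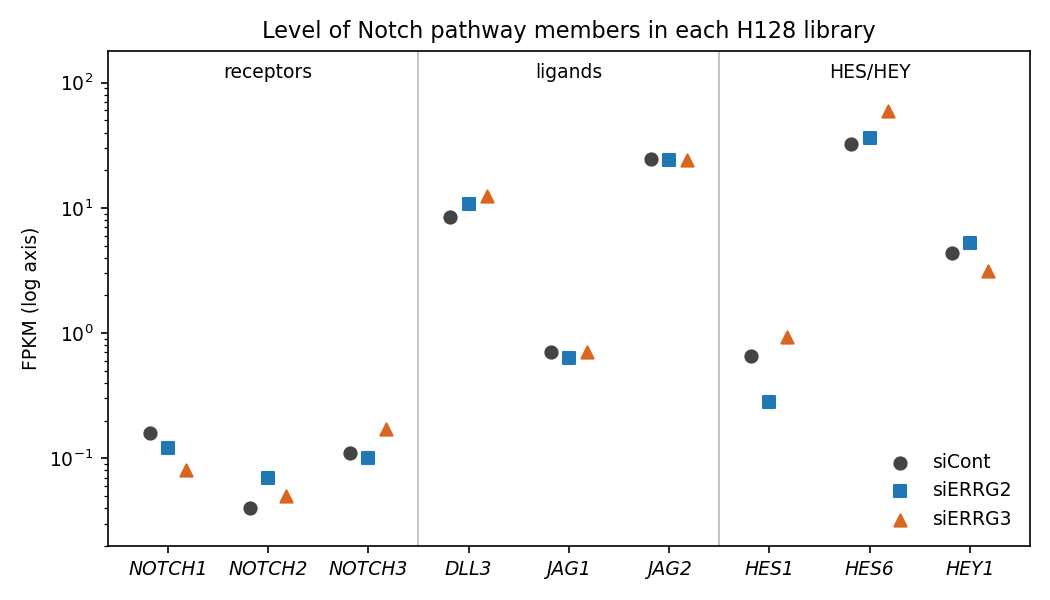
FPKM (log axis) of 9 members in the siCont, siERRG2 and siERRG3 libraries, 1 point per library, grouped as receptors, ligands and HES/HEY factors; DLL1, listed at 0 in siCont and siERRG3, is not drawn. The receptors lie between 0.04 and 0.17 FPKM, and HES6 and JAG2 above 20.

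For changes between libraries, 9 of the 10 members passed the filter and 5 had a mean of at least 50 counts. Calls of lower or higher rest on a change of at least 1.2-fold in TMM-scaled CPM. In siERRG2, 2 members were lower than in siCont, NOTCH1 and HES1, where 19.2% of the 14031 genes tested were lower, and 2 were higher, NOTCH2 and DLL3, where 16.4% of all genes were higher. In siERRG3, 2 members were lower, NOTCH1 and HEY1, against 25.1% of all genes, and 4 were higher, NOTCH3, DLL3, HES1 and HES6, against 23.2%. Over the 9 members, log2 fold changes had a median of -0.06 for siERRG2 and 0.20 for siERRG3, beside medians over all genes tested of -0.0004 and -0.0033. Requiring also that the interval of the count ratio exclude 1 left HES1 (lower) and DLL3 (higher) in siERRG2. In siERRG3 it left HEY1 (lower), DLL3 and HES6 (higher). The background for this stricter rule was 12.8% lower and 10.2% higher in siERRG2, and 19.9% and 17.1% in siERRG3.

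DLL3 was the only member called higher in both ESRRG libraries, where 7.26% of all genes were higher in both, or 3.27% with both intervals also excluding 1, as those of DLL3 did. These comparisons share the siCont library. DLL3 is gene 10683 and lies on chromosome 19 from 39498947 to 39508469 in GRCh38. It had 389 counts with siCont, 486 with siERRG2 and 578 with siERRG3. The siCont library was the lowest and siERRG3 the highest. The count ratio to siCont was 1.24 in siERRG2 (interval 1.08 to 1.41) and 1.46 in siERRG3 (1.28 to 1.67), with log2 fold changes of 0.30 and 0.54. Between the siRNAs, siERRG3 was at 1.18 times siERRG2 (1.05 to 1.34), which is under the 1.2-fold threshold. The counts of DLL3 were whole numbers in all 3 libraries. The region the table assigns to it also holds parts of EID2B, with 97, 91 and 143 counts, and SELENOV, with 1, 0 and 0.

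The other ligands differed little. JAG2 is gene 3714 and lies on chromosome 14 from 105140995 to 105168776. It had 2743 counts with siCont, 2654 with siERRG2 and 2690 with siERRG3. Relative to siCont it stood at 0.957 (0.906 to 1.01) with siERRG2 and 0.964 (0.914 to 1.02) with siERRG3, so that at this depth each interval lay within the 1.2-fold limits. JAG1 had 86, 76 and 86 counts, and its wider intervals of 0.633 to 1.204 and 0.721 to 1.34 do not reach the same precision.

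HES6 was higher in siERRG3 by the largest ratio of any member in that comparison. HES6 is gene 55502 and lies on chromosome 2 from 238238267 to 238240038. It had 924 counts with siCont, 1035 with siERRG2 and 1708 with siERRG3. The siERRG3 library stood apart, while siCont and siERRG2 were close. The ratio to siCont was 1.82 in siERRG3 (1.68 to 1.97), a log2 fold change of 0.86. In siERRG2 it was 1.11 (1.01 to 1.21), which did not reach the threshold. The direct ratio of siERRG3 to siERRG2 was 1.64 (1.52 to 1.77). HES6 counts were whole numbers, and ESPNL, the gene that overlaps its extent, had 0, 0 and 1 counts.

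HEY1 (gene 23462), a repressor induced by Notch, showed another order. It had 197 counts with siCont, 238 with siERRG2 and 144 with siERRG3, the last being the lowest. The ratio to siCont was 1.19 in siERRG2 (0.985 to 1.45), within counting error and just under the 1.2-fold threshold, and 0.719 in siERRG3 (0.576 to 0.896). Between the siRNAs the ratio of siERRG3 to siERRG2 was 0.602 (0.486 to 0.743). HES6 and HEY1 thus had opposite differences between the ESRRG libraries, and the FPKM of HES6 was 6.88 times that of HEY1 in siERRG2 and 18.9 times in siERRG3.

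HES1 (gene 3280), whose promoter holds the RBPJ motifs shown above, had few reads. It had 19 counts with siCont, 8 with siERRG2 and 27 with siERRG3. The ratio to siCont was 0.416 in siERRG2, with an interval of 0.158 to 0.996 whose upper end is close to 1, and 1.40 in siERRG3, with an interval of 0.749 to 2.66. The ratio of siERRG3 to siERRG2 was 3.36 (1.48 to 8.55). HES1 was the only member called in opposite directions by the siRNAs, as were 6.05% of all genes; with CPM from total counts or FPKM with a pseudocount of 0.1, HEY1 was called higher in siERRG2 as well (log2 fold change 0.27 with each) and joins it.

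For the receptors, which had few reads, no difference beyond counting error was seen. NOTCH1 had 27 counts with siCont, 22 with siERRG2 and 14 with siERRG3. It was the only member called lower in both ESRRG libraries, where 7.88% of all genes were. With both intervals also excluding 1, 0 members and 4.90% of all genes were lower in both, and those of NOTCH1 held 1, at 0.437 to 1.47 for siERRG2 and 0.247 to 1.01 for siERRG3. NOTCH3 had 17, 16 and 27 counts, and a ratio of 1.56 (0.821 to 3.05) in siERRG3. NOTCH2 had estimated counts of 9.50, 15.52 and 11.91, the only member whose counts were not whole numbers. Its near-identical partial copies were listed separately. NOTCH2NLC had 71.89 estimated counts in siCont, NOTCH2NLB 60.83 and NOTCH2NLR 30.93, each with more reads than NOTCH2, and their counts were not whole either. The counting could have split reads between NOTCH2 and these copies, and its value is uncertain.

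**Figure D2:**
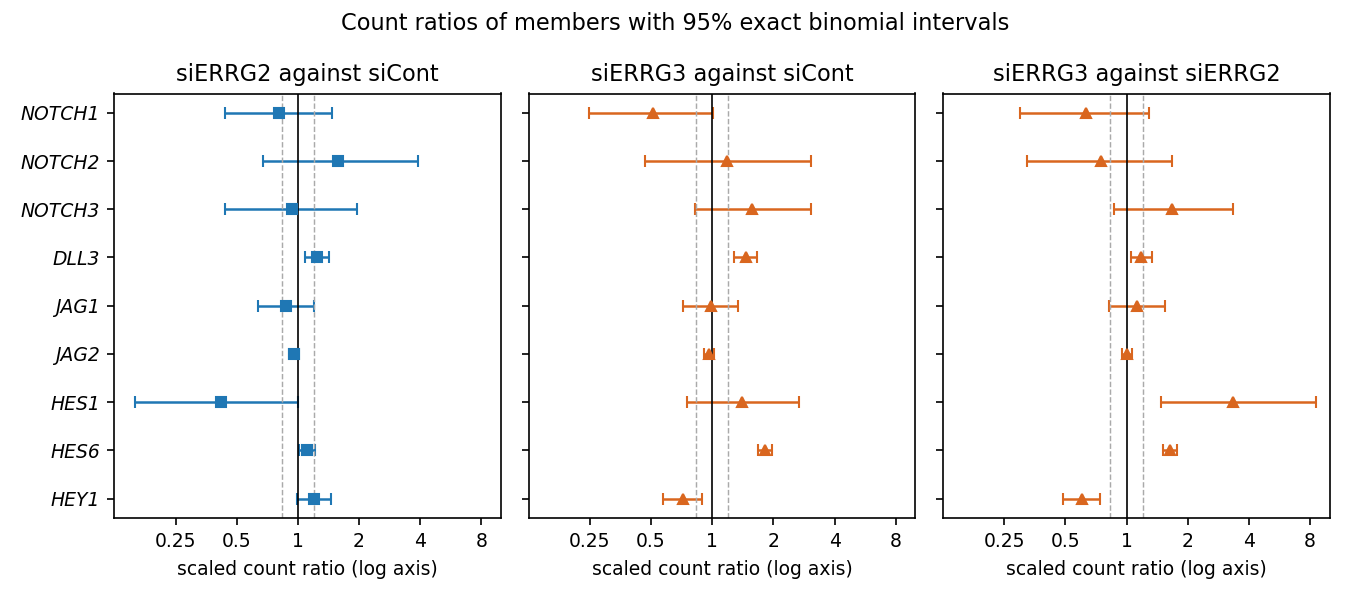
Scaled count ratios (log axis) of the 9 members that passed the filter, with 95% exact binomial intervals of counting error, for siERRG2 against siCont, siERRG3 against siCont and siERRG3 against siERRG2; the solid line marks 1 and the dashed lines a 1.2-fold change. DLL3 lies to the right of 1 in both left panels, HES6 is at 1.82 and HEY1 at 0.719 in siERRG3, and the receptor intervals all hold 1.

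In the direct comparison of the ESRRG libraries, 3 members were lower in siERRG3 than in siERRG2 (NOTCH1, NOTCH2 and HEY1), beside 25.3% of all genes. Another 3 were higher (NOTCH3, HES1 and HES6), beside 26.4% of all genes. With the interval also excluding 1, HEY1 was lower, beside 20.4% of all genes, and HES1 and HES6 were higher, beside 19.6%.

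The other HES and HEY factors also had widely spread levels. HES4, a repressor of the same family, was at 43.6 FPKM in siCont, above HES6, and had 938 counts with siCont, 1360 with siERRG2 and 1376 with siERRG3. The ESRRG libraries were close to each other and above siCont. Its ratio to siCont was 1.43 (1.32 to 1.56) and 1.44 (1.33 to 1.57). HEY2, a relative of HEY1, had 830, 817 and 1176 counts, with ratios of 0.973 (0.882 to 1.07) for siERRG2 and 1.39 (1.27 to 1.52) for siERRG3. The siERRG3 library thus held more HEY2 and less HEY1 than siCont. HEYL had 32, 12 and 28 counts, and a ratio of 0.371 (0.174 to 0.739) in siERRG2. HES5 had 4, 10 and 14 counts, with wide intervals of 0.713 to 10.8 for siERRG2 and 1.08 to 14.4 for siERRG3, the latter above 1. Of the 6 tested, 3 were called higher in each ESRRG library, beside 16.4% of all genes in siERRG2 and 23.2% in siERRG3. In each library 2 were lower, beside 19.2% and 25.1%. HES4 and HES5 were higher in both, beside 7.26%. HES5 reached the filter of 10 counts only in the ESRRG libraries, so the filter partly set its calls in these counts. HES2, with 24, 15 and 17 counts, was lower in both, beside 7.88%, and both its intervals against siCont held 1. With both intervals also excluding 1, HES4 alone was higher in both, beside 3.27%, and 0 were lower, beside 4.90%.

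**Figure D3:**
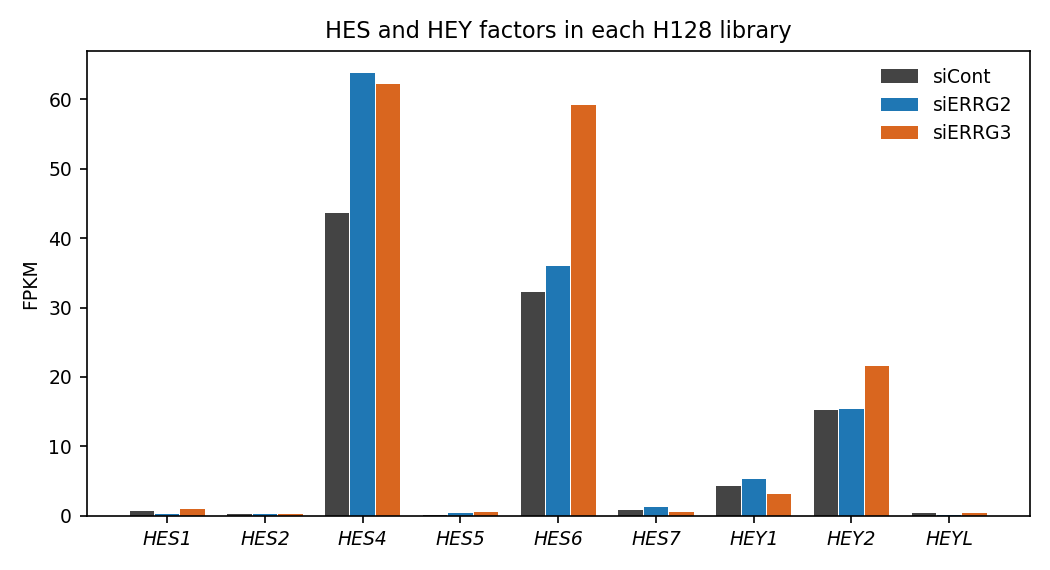
FPKM of the 9 HES and HEY factors that passed the filter, 1 bar per library. HES4, HES6 and HEY2 carry most of the family's level. HES6 has its own highest value in siERRG3, at 59.2, below the 62.2 of HES4 there. HES4 stands at 43.6 in siCont with both ESRRG libraries above it.

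The remaining pathway genes came from lists chosen by role. In all, 73 genes outside the members were in the table, of which 70 were tested. In siERRG2, 20 were lower and 9 higher, or 28.6% and 12.9%, beside 19.2% and 16.4% of all genes. In siERRG3, 19 were lower and 15 higher, or 27.1% and 21.4%, near the 25.1% and 23.2% of all genes. HES5 is among the higher genes in each library, and REST in siERRG2. Both reached the filter of 10 counts only in ESRRG libraries where they were called higher. Of the 70, 8 were lower in both ESRRG libraries and 5 higher in both, beside 7.88% and 7.26% of all genes. With both intervals also excluding 1, 6 were lower and 2 higher in both, beside 4.90% and 3.27%. The shares of all genes are the background for the lists that follow, each of which is small. The median over the 70 was -0.09 on the log2 scale for siERRG2 and -0.07 for siERRG3.

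Nuclear partners of the receptors were well expressed. RBPJ had 1701 counts with siCont, 1802 with siERRG2 and 1663 with siERRG3, and both ratios to siCont were within counting error, at 1.05 (0.98 to 1.12) and 0.961 (0.898 to 1.03). Of the 8 genes of the transcription complex, 0 passed the threshold in siERRG2, beside 19.2% of all genes lower and 16.4% higher. In siERRG3 MAML3, a Mastermind co-activator, was lower, with 1563 counts in siCont and 832 in siERRG3 (ratio 0.523, interval 0.481 to 0.570), and KAT2B was higher. Each was 12.5% of the list, beside 25.1% of all genes lower and 23.2% higher. SNW1, a cofactor in the complex, was the highest of them at 57.5 FPKM in siCont. Among 15 co-repressors, 4 were lower (26.7%, beside 19.2% of all genes) and 1 higher (6.67%, beside 16.4%) in siERRG2. In siERRG3, 2 were lower and 2 higher (13.3% each, beside 25.1% and 23.2%). The highest was AES (TLE5), of the Groucho family, at 318 FPKM.

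Genes of ligand endocytosis, the step in the signal-sending cell that pulls the ligand inward, were lower in siERRG2 in 4 of 6 cases, beside 19.2% of all genes, with a median log2 fold change of -0.51. In that library 0 were higher, beside 16.4% of all genes. In siERRG3, 2 were lower and 1 higher, beside 25.1% and 23.2% of all genes, with a median of -0.10. MIB1, the ubiquitin ligase that acts on Notch ligands, had 1591 counts with siCont, 1259 with siERRG2 and 879 with siERRG3, with ratios of 0.782 (0.726 to 0.843) and 0.543 (0.4998 to 0.590). NEURL1B, another ligase of ligands, had 630, 376 and 417 counts, with ratios of 0.590 and 0.651. EPN1, an endocytic adaptor, was the highest of the group at 75.5 FPKM, with ratios of 0.929 and 1.12.

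For receptor cleavage, 3 of 9 genes were lower (33.3%, beside 19.2% of all genes) and 1 higher (11.1%, beside 16.4%) in siERRG2. In siERRG3, 2 were lower (22.2%), which is below the 25.1% of all genes, and 0 were higher, beside 23.2%. APH1B, a γ-secretase subunit, was lower in both, with 328, 182 and 191 counts and ratios of 0.549 (0.455 to 0.660) and 0.573 (0.477 to 0.687). APH1A, its homologue, was the highest of the group at 75.8 FPKM, and its ratios were 1.06 and 1.07. Among 8 tested genes of receptor glycosylation, 2 were lower (beside 19.2% of all genes) and 0 higher (beside 16.4%) in siERRG2. In siERRG3, 4 were lower (beside 25.1%) and 2 higher, a share near the 23.2% of all genes. LFNG, a fringe enzyme that tunes which ligands a receptor answers, had 70, 45 and 36 counts and was lower in both, with ratios of 0.636 (0.427 to 0.937) and 0.506 (0.329 to 0.766). POFUT1, which adds O-fucose to receptors, was highest at 22.7 FPKM, with ratios of 1.11 and 1.03. Of the ligand-like genes and other receptors, DLK2 was highest, with 77, 69 and 94 counts. Of the 3 tested there, too few to set beside a share of all genes, 1 was lower and 1 higher in siERRG2, and 1 was higher in siERRG3.

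The Deltex genes, a family of E3 ligases named for a regulator of Notch, differed in both directions. DTX4 had 3361 counts with siCont, 2159 with siERRG2 and 971 with siERRG3, and DTX1, itself a reported Notch target, had 240, 75 and 182. DTX4 and DTX1 were lower in each ESRRG library, DTX4 more so in siERRG3 and DTX1 more so in siERRG2. The ratios of DTX4 were 0.635 (0.601 to 0.671) and 0.284 (0.264 to 0.305), and those of DTX1 0.309 (0.235 to 0.402) and 0.746 (0.612 to 0.908). DTX3L, with fewer reads (17, 36 and 42 counts), was higher in both, at 2.09 (1.15 to 3.97) and 2.43 (1.35 to 4.55). DTX2 was higher in siERRG3 (1.33, 1.12 to 1.59) and within counting error in siERRG2, while DTX3 was lower in siERRG2 (0.753, 0.674 to 0.842) and within counting error in siERRG3. Of the 11 genes of receptor turnover and feedback, 4 were lower (36.4%, beside 19.2% of all genes) and 1 higher (9.09%, beside 16.4%) in siERRG2. In siERRG3, 3 were lower (27.3%, near the 25.1% of all genes) and 4 higher (36.4%, beside 23.2%). Among 6 other reported targets, 1 was lower and 2 higher in siERRG2, beside 19.2% and 16.4% of all genes, and 4 lower and 2 higher in siERRG3, beside 25.1% and 23.2%. REST is among the 2 higher in siERRG2 and the 4 lower in siERRG3, and reached the filter of 10 counts only in siERRG2. DTX1 and NRARP are counted in both the turnover list and this one. Unlike DTX1, NRARP was not lower, with 306, 342 and 418 counts. Its ratios were 1.10 (0.944 to 1.29) and 1.34 (1.16 to 1.56). CDKN1A, a cell cycle inhibitor with many regulators, was the highest at 160 FPKM in siCont.

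**Figure D4:**
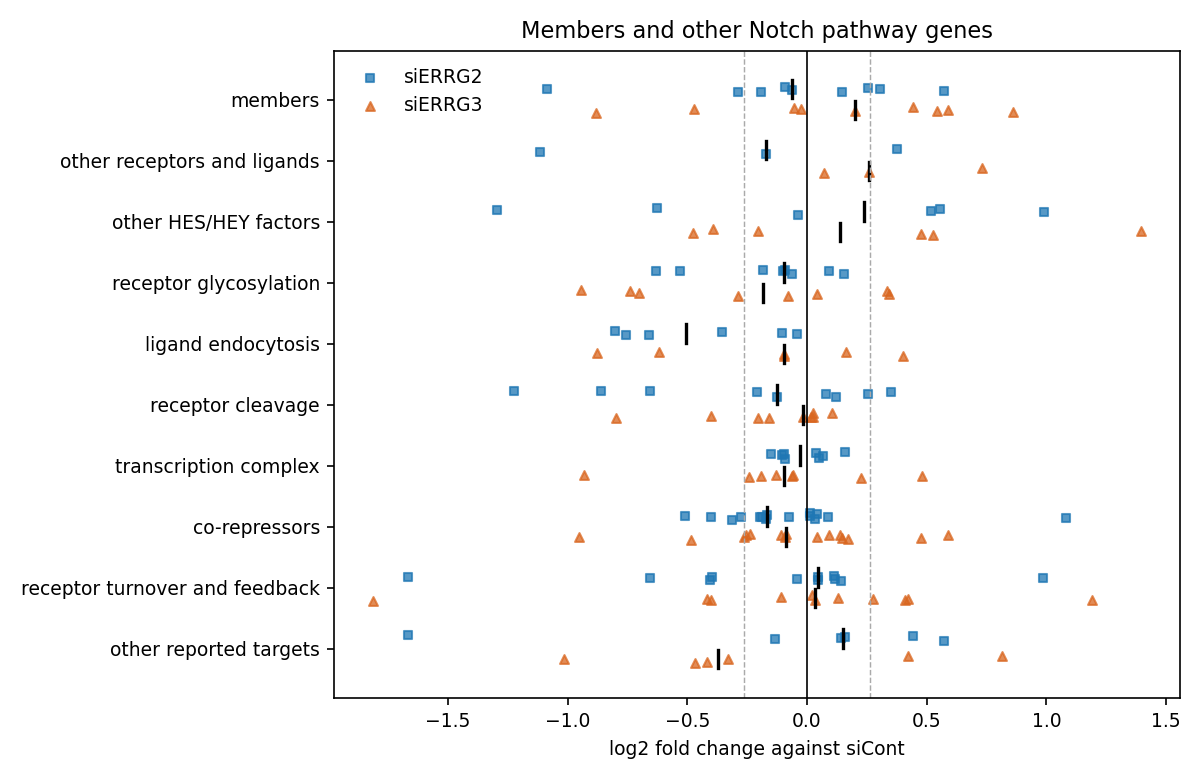
Log2 fold change against siCont of members and other Notch pathway genes that passed the filter, by list, with siERRG2 as squares and siERRG3 as triangles; black bars are medians and dashed lines a 1.2-fold change, and a gene of 2 lists is drawn in each. Ligand endocytosis has its siERRG2 median at -0.51, and the leftmost points of the turnover list are DTX1 in siERRG2 and DTX4 in siERRG3.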

How the data were processed

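RNA of H128 cells was sequenced in 3 libraries, 1 per condition. The methods name BWA and Bowtie 2 with GRCh37/hg19, whereas the submitters' processing notes name TopHat2, HTSeq and DESeq2 and the builds GRCh38, hg19 and hg38. Gene coordinates in the table are on GRCh38. The authors deposited estimated counts (expected counts) per gene, not normalized, which were rounded to whole numbers here. The authors also deposited an expression value with no unit named, which is treated here as FPKM. The median ratio of count to value, relative to siCont, was 1.002 for siERRG2 and 1.009 for siERRG3. Total counts gave 1.002 and 1.008. Because the totals were nearly equal, these ratios cannot tell FPKM from another unit scaled by length and library size. The table also holds 6 columns of the authors' own comparisons (log2 ratios, p-values and adjusted values), which were not used.

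TMM scaling and log2 CPM (prior count 2) came from edgeR 4.0.16 in R 4.3.3. The size of change was taken for the 14031 genes that reached 10 counts in any library, at the study's 1.2-fold threshold. Without replicates no statistical model was fitted. Intervals of count ratios are exact binomial and those of levels exact Poisson (SciPy 1.17.1). Ratios are of scaled counts without a prior. The floor was 3 counts, and no fold is given where both groups are at it. Coordinates and promoters are from RefSeq GRCh38.p14. The computations were tested on simulated data.

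The members and lists were chosen with earlier results of these data known. All members are named. From each other list the text names the gene with the highest FPKM in siCont and up to 3 genes per direction called in both ESRRG libraries whose intervals excluded 1 and whose mean count was 50 or more. Other genes were named after their values were seen. DLK1 and 1 neuroendocrine marker were not analysed here. The alternatives were CPM from total counts, DESeq2 1.42.0 size factors, FPKM with pseudocounts of 0.1 and 1, a 1.5-fold threshold, the interval rule, a prior count of 0.5, and either no filter or one on the mean count (50).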

Additional observations from a re-analysis of the deposited data

Results flagged for a closer look

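HES1 drew attention because it was called lower than siCont in one ESRRG library and higher in the other, with 8 counts in siERRG2 and 27 in siERRG3 against 19. The log2 difference of siERRG3 from siERRG2 was 1.53. With 1 library each, no test over samples of this difference was possible, and the interval of the ratio, 1.48 to 8.55, covers counting error only.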

How the results depend on the processing

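No log2 fold change of a single member changed sign under CPM from total counts, DESeq2 size factors, FPKM with either pseudocount or a prior count of 0.5 (90 values for 18 fold changes), though that of JAG1 in siERRG3 became 0 with FPKM. All stayed within their counting intervals, which are wide for low counts and say little there. FPKM with a pseudocount of 1 drew HES1 in siERRG2 from -1.09 to -0.38 and NOTCH1 in siERRG3 from -0.88 to -0.10, moves of over 1.5-fold. The counts of called members depended on low-count genes and on the threshold. In siERRG2 the 2 lower members became 1 with FPKM at either pseudocount, 1 at 1.5-fold, 1 under the interval rule and 0 at a mean of at least 50 counts. The 2 higher members became 1 with FPKM and a pseudocount of 1, 1 at a mean of at least 50, 1 under the interval rule and 0 at 1.5-fold. In siERRG3 the 2 lower members became 1, and the 4 higher members became 2, under each of FPKM with a pseudocount of 1, a mean of at least 50, 1.5-fold and the interval rule. The member lower in both libraries, NOTCH1, was lost (0) under both FPKM settings, a mean of at least 50, 1.5-fold and the interval rule, and the member higher in both, DLL3, was lost only at 1.5-fold (0). Between the ESRRG libraries, the 3 members lower in siERRG3 became 1 with FPKM and a pseudocount of 1, at a mean of at least 50 and under the interval rule, and the 3 higher became 1 at a mean of at least 50. For the other pathway genes at 1.5-fold, the 20 lower and 9 higher in siERRG2 became 12 and 3, and the 19 lower and 15 higher in siERRG3 became 10 and 5. The 9 higher in siERRG2 became 3 at a mean of at least 50 and 5 under the interval rule. The median of the members in siERRG2 changed sign to 0.04 with no filter and 0.15 at a mean of at least 50, and that in siERRG3 to -0.02 at a mean of at least 50. A level per annotated transcript length was not run, since the table gives no length. No paired analysis was possible because each condition has 1 library. Members with a mean under 50 counts have wide intervals. Of those tested, only HES1 had intervals that excluded 1, in siERRG2 against siCont and in siERRG3 against siERRG2.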

Other observations

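Among the 70 other pathway genes tested, 6 were called in opposite directions by the siRNAs, HES7, MIB2, TLE1, NUMBL, REST and CDKN1A, beside 6.05% of all genes. They were named after their values were seen. MIB2, a ubiquitin ligase of Notch ligands related to MIB1, had 786 counts with siCont, 503 with siERRG2 and 1057 with siERRG3, and its ratio of siERRG3 to siERRG2 was 2.09 (1.88 to 2.33). TLE1, a Groucho co-repressor, had 409, 333 and 626 counts, and NUMBL, of the Numb family of Notch antagonists, had 901, 692 and 1111. CDKN1A had the reverse order, with 6799, 9349 and 5507. REST, a repressor of neuronal genes and a reported Notch target, had 6, 10 and 2 counts, and HES7 had 29, 44 and 22, and both intervals of each against siCont held 1. REST reached the filter of 10 counts only in siERRG2, where it was called higher, so the filter partly set that call.

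Other genes differed from siCont in 1 ESRRG library while the ratio in the other was near 1. FURIN, the protease that processes Notch receptors before they reach the surface, had 731 counts with siCont, 315 with siERRG2 and 756 with siERRG3, a ratio of siERRG3 to siERRG2 of 2.39 (2.09 to 2.73). CTBP2, a co-repressor, had 1782, 1918 and 935 counts and a ratio of 0.485 (0.448 to 0.525). SOX9, a reported Notch target, had 340, 313 and 610 counts and a ratio of 1.94 (1.69 to 2.23).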
